A study of Mus musculus with 2 samples.

Results

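The Mir9 and Mir124a gene copies are 5 of the 1973 miRNA genes counted in the embryonic mouse forebrain. They were chosen by name: Mir9-2 and Mir9-3 make miR-9, and Mir124a-1, Mir124a-2 and Mir124a-3 make miR-124. The Ensembl identifiers of all 5 were found in the GENCODE M21 annotation of the mouse build mm10. MicroRNA-seq reads short RNA, here of less than 30 bases, the size of mature microRNAs (miRNAs). The tissue was forebrain of healthy B6NCrl embryos at embryonic day 11.5, male and female together, with 109 embryos pooled for replicate 1 and 88 for replicate 2. Both pools carry the same donor entry, there is 1 group, and no treated or control group exists, so the comparisons are between copies, between the families and between the 2 libraries. Levels are given as CPM, the counts on the strand of the gene (sense counts) per 1000000 sense counts over all gene rows, of which there were 1281201 in replicate 1 and 1297647 in replicate 2. A pool mixes cell types, and fewer cells of a type and less RNA per cell cannot be told apart.

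A miRNA gene is transcribed as a longer RNA that folds into a hairpin, from which the enzymes Drosha and Dicer cut the 5p and the 3p arm, and a mature arm bound to an Argonaute protein represses messenger RNAs that match its seed. miR-9 is known from neural progenitors of the forebrain, where it targets messenger RNAs such as that of the progenitor factor Nr2e1. miR-124 is the classical neuron-enriched miRNA, known to target the splicing repressor Ptbp1, and its genes are repressed outside neurons by the factor REST. Several gene copies on different chromosomes make each of these miRNAs, so a read of the mature arm alone does not say which copy it came from.

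The sequences of the Mir9 arms and hairpins are shown because they set which reads can be given to a copy. They come from the RefSeq miRNA table on GRCm38.p6, the assembly that mm10 names, in which 2 of the 5 members were matched. The seed, bases 2 to 8, stands in capitals in the arms.
miR-9-5p: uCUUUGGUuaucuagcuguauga
miR-9-3p: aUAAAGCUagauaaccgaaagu
In the hairpins, the capitals mark the 5p arm and then the 3p arm. Mir9-1, the third copy of the family, is shown for comparison.
Mir9-3: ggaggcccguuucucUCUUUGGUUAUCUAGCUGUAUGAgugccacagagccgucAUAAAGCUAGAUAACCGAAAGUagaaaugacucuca
Mir9-2: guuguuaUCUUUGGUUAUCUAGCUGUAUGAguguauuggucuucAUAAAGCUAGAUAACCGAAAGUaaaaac
Mir9-1: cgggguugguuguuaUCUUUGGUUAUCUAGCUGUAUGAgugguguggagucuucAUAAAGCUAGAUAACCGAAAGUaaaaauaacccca
Both arms are the same in the 3 hairpins, and the copies differ in the loop and the flanks. The hairpins of Mir9-2 and Mir9-1 were identical at 70 of 72 aligned bases (97.2%), those of Mir9-3 and Mir9-2 at 64 of 72 (88.9%) and those of Mir9-3 and Mir9-1 at 71 of 89 (79.8%). These shares leave out gaps, of which there were 17, 18 and 1 in the same order. The annotated hairpin of Mir9-2 is shorter and lacks part of the flanks, so the shares do not rank the pairs. Mir124a-1, Mir124a-2 and Mir124a-3 are described by their counts.

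A read reaches the row of 1 copy only when it holds a base in which the copies differ. With 1 further base at its 5′ end, the 5p arm of Mir9-3 fitted a single place among the 981 places of the hairpin table, whereas the 5p arms of Mir9-2 and Mir9-1 still fitted 2 places with 6 further bases. At its 3′ end the 5p arm needed 4 further bases in each of the 3 copies. For the 3p arm, 2 further bases at the 3′ end or 3 at the 5′ end were enough in Mir9-3, while Mir9-2 and Mir9-1 needed 6 at the 3′ end and were not told apart by 6 at the 5′ end. Among windows that start up to 2 bases from the annotated arm start and end up to 3 bases past its end, 22 of 60 (36.7%) of Mir9-3 fitted 1 place, against 0 of 60 of Mir9-2 and 0 of 60 of Mir9-1. Over the whole hairpin, 81.7% of the stretches of 20 bases of Mir9-3 fitted 1 place, 47.2% of those of Mir9-2 and 60.0% of those of Mir9-1. The search covered miRNA hairpins and exact matches only, since no genome sequence was used, and it says how reads could fall, not how many did.

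**Figure D1:**
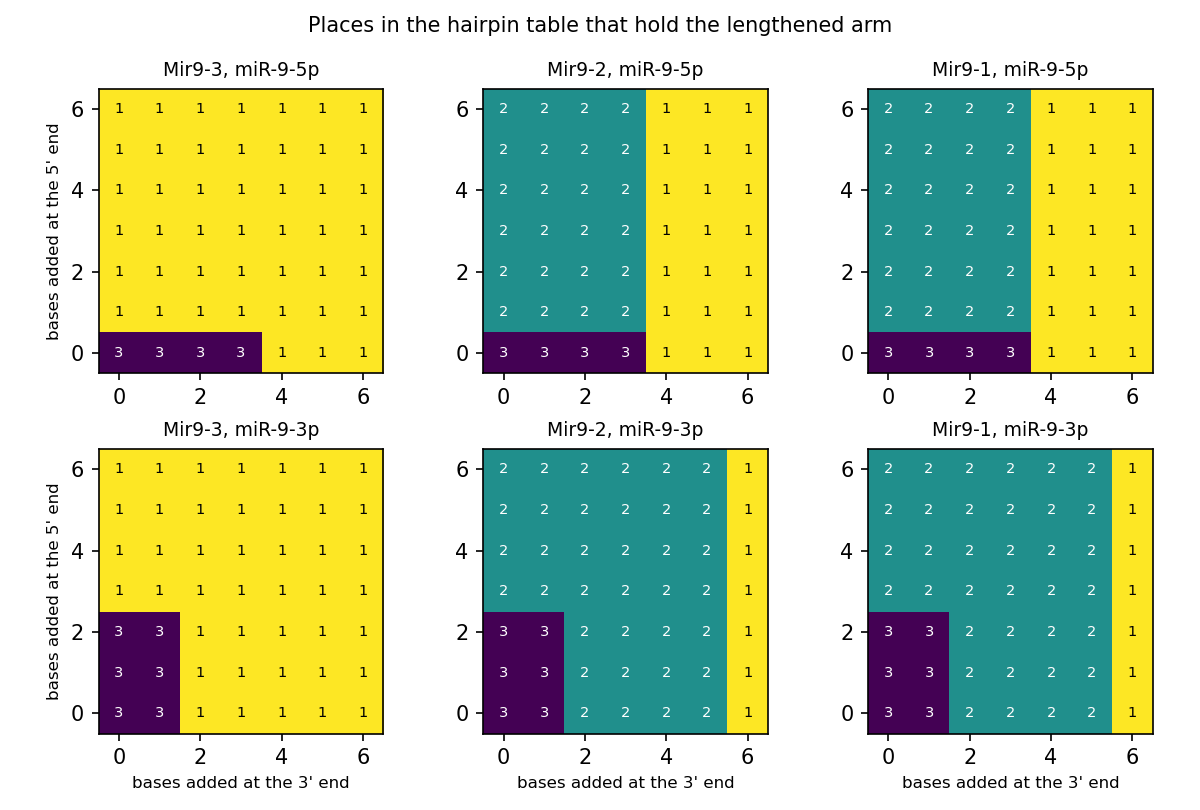
Number of places in the hairpin table (1, 2 or 3) that hold the miR-9-5p arm (top) or the miR-9-3p arm (bottom) of each Mir9 copy after 0 to 6 bases of its own hairpin are added at the 3′ end (horizontal axis, bases) and at the 5′ end (vertical axis, bases). In Mir9-3 a single place is reached with 1 base at the 5′ end of the 5p arm, while Mir9-2 and Mir9-1 share most lengthened forms.

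Mir9-3 was the more read of the Mir9 copies with a row of their own. It had 670 sense counts in replicate 1 and 564 in replicate 2, which are 523 CPM (95% counting interval 484 to 564) and 435 CPM (399 to 472), or 479 ± 62.4 CPM (SD, n = 2). Mir9-2 had 14 and 7 sense counts in replicates 1 and 2, which are 10.9 CPM (5.97 to 18.3) and 5.39 CPM (2.17 to 11.1), or 8.16 ± 3.91 CPM (SD, n = 2). The values of the copies did not overlap in either library, and Mir9-3 took 97.95% of the pair's counts in replicate 1 (96.6 to 98.8%, a 95% Wilson interval) and 98.8% in replicate 2 (97.5 to 99.4%). Mir9-3 lies on chromosome 7 from 79505264 to 79505353, in an intron of its host lincRNA Mir9-3hg (identifier ENSMUSG00000093238). Mir9-2 lies on chromosome 13 from 83738814 to 83738885, wholly inside an exon of the lincRNA C130071C03Rik (ENSMUSG00000065424).

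The counts of Mir9-3 over those of Mir9-2 gave 47.9-fold in replicate 1 and 80.6-fold in replicate 2. As a log2 ratio of counts with 0.5 counts added, the difference between the copies was 5.53 in replicate 1 (95% exact interval of the raw ratio 4.82 to 6.46) and 6.23 in replicate 2 (5.28 to 7.65), or 5.88 ± 0.50 (SD, n = 2). The exact two-sided binomial test of equal counts, adjusted over the 8 tests of 4 pairs of copies in 2 libraries, gave an adjusted p of 1.00e-176 in replicate 1 and 3.97e-156 in replicate 2. It compares reads that fit 1 place, not transcription of the copies. The test starts from equal counts, although 22 of 60 arm windows of Mir9-3 fitted 1 place and 0 of 60 of Mir9-2. Equal output of the copies need not give equal counts. A read of a miRNA is about as long as the arm whatever the length of the hairpin, 90 bases for Mir9-3 and 72 for Mir9-2, and per base of hairpin the log2 ratio was 5.56.

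The third copy, Mir9-1, was not analysed as a gene row here, but its place can be read from another row, a choice made after the values were seen. The row Gm25641 (ENSMUSG00000092876) lies on the minus strand of chromosome 3 from 88215589 to 88215696 and spans Mir9-1, which lies on the plus strand from 88215598 to 88215686. Its sense column held 0 counts in both libraries, and its opposite column, which counts the strand of Mir9-1, held 144 in replicate 1 and 111 in replicate 2. These are 112 CPM (94.8 to 132) and 85.5 CPM (70.4 to 103), or 99.0 ± 19.0 CPM (SD, n = 2). The value stands between the other copies in both libraries: Mir9-3 had 4.65-fold as many counts in replicate 1 and 5.08-fold in replicate 2, and the Mir9-1 place had 10.3-fold and 15.9-fold as many as Mir9-2. Of the reads given to the 3 places, Mir9-3 took 80.9% and 82.7%, the Mir9-1 place 17.4% and 16.3% and Mir9-2 1.69% and 1.03% in replicates 1 and 2. The order by counts was thus the order of the share of 20-base stretches that fit 1 place. By arm windows, however, Mir9-1 and Mir9-2 were equal, with 0 of 60 that fit 1 place in each. Whether the reads followed either share was not tested.

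**Figure D2:**
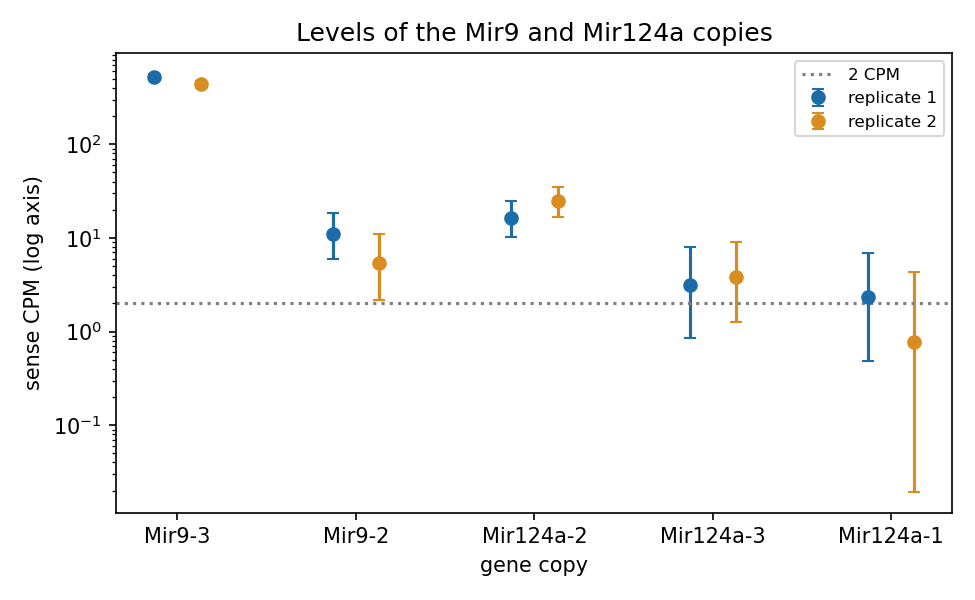
Level of each gene copy in sense CPM (log axis) in replicate 1 (blue) and replicate 2 (orange), with 95% Poisson intervals of the counts and a dotted line at 2 CPM. Mir9-3 stands at 523 and 435 CPM, the other 4 copies at 24.7 CPM or less.

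Of the Mir124a copies, Mir124a-2 was read most, at a low level. It had 21 sense counts in replicate 1 and 32 in replicate 2, which are 16.4 CPM (10.1 to 25.1) and 24.7 CPM (16.9 to 34.8), or 20.5 ± 5.85 CPM (SD, n = 2). Mir124a-3 had 4 and 5 sense counts, 3.12 CPM (0.851 to 7.99) and 3.85 CPM (1.25 to 8.99), and Mir124a-1 had 3 and 1, 2.34 CPM (0.483 to 6.84) and 0.771 CPM (0.0195 to 4.29). Mir124a-2 lay above both other copies in each library, while the counting intervals of Mir124a-3 and Mir124a-1 overlapped in both. No sequences of these copies were matched, so the share of reads that can be given to each is unknown. Whether that share sets their order was not tested. Mir124a-1 stood at or under 3 counts, the limit that a count of 0 allows, which is 2.34 CPM in replicate 1 and 2.31 CPM in replicate 2.

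The place of each copy differs. Mir124a-2 lies on chromosome 3 from 17795662 to 17795770, in Mir124-2hg, with 27 of its 109 bases in an exon of that lincRNA (ENSMUSG00000093073). Mir124a-3 lies on chromosome 2 from 180894040 to 180894107 (ENSMUSG00000065454), where its last 3 bases overlap the lincRNA Gm27032. Mir124a-1 lies on chromosome 14 from 64590657 to 64590741, with all its 85 bases in an exon of Mir124a-1hg (ENSMUSG00000065597). All 5 members are on the plus strand. The identifiers of Mir9-2 and Mir124a-3 carry version 1 in the count files and version 2 in M21, so the interval counted by the authors may differ from the one given here.

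The log2 ratio of Mir124a-2 over Mir124a-1 counts was 2.62 in replicate 1 (1.06 to 5.20) and 4.44 in replicate 2 (2.42 to 10.3), or 3.53 ± 1.29 (SD, n = 2), with adjusted p of 0.000443 and 2.11e-08 in the exact binomial test. This value rests on 3 and 1 counts of Mir124a-1. Mir124a-2 over Mir124a-3 gave 2.26 (0.82 to 4.39) and 2.56 (1.31 to 4.40) in replicates 1 and 2, or 2.41 ± 0.22 (SD, n = 2), with adjusted p of 0.00121 and 1.49e-05 in the exact binomial test. Mir124a-3 over Mir124a-1 gave 0.36 (-2.15 to 3.19) and 1.87 (-0.84 to 7.89), with adjusted p of 1 and 0.25 in the exact binomial test, a difference not detectable at this depth. Per base of hairpin, the mean log2 ratios were 3.17, 1.73 and 1.44 for these pairs, on the same side of the threshold. As for Mir9, the test compares reads that could be given to a single copy, not transcription of the copies.

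Mir124a-3 was the member with more counts on the opposite strand than on its own. Its opposite counts were 14 in replicate 1 and 8 in replicate 2, beside 4 and 5 sense counts, so the sense share was 22.2% (95% Wilson interval 9.00 to 45.2%) and 38.5% (17.7 to 64.5%), or 30.3% ± 11.5 (SD, n = 2). Over all miRNA genes the sense share was 96.4% and 96.8%. Mir9-2, Mir124a-1 and Mir124a-2 had 0 opposite counts in both libraries, and Mir9-3 had 0 in replicate 1 and 1 in replicate 2. Among the 409 genes with 10 counts or more on both strands together, 12 (2.93%) had more opposite than sense counts, Mir124a-3 and Gm25641 among them. Of these 12, Mir124a-3 had the fewest opposite counts, 22 over both libraries.

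Counting both strands together changed the comparison of copies. Mir124a-2 against Mir124a-3 then had 21 against 18 counts in replicate 1 and 32 against 13 in replicate 2, a log2 ratio of 0.22 (-0.76 to 1.22) and 1.27 (0.33 to 2.35), with adjusted p of 0.749 and 0.00755 in the exact binomial test. Mir124a-3 over Mir124a-1 became 18 against 3 and 13 against 1, with adjusted p of 0.00238 and 0.00244 in the exact binomial test. The place of Mir124a-2 over Mir124a-3 thus rests on the sense column. No annotated M21 gene lies on the other strand at Mir124a-3, and which RNA gave the opposite reads was not examined.

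**Figure D3:**
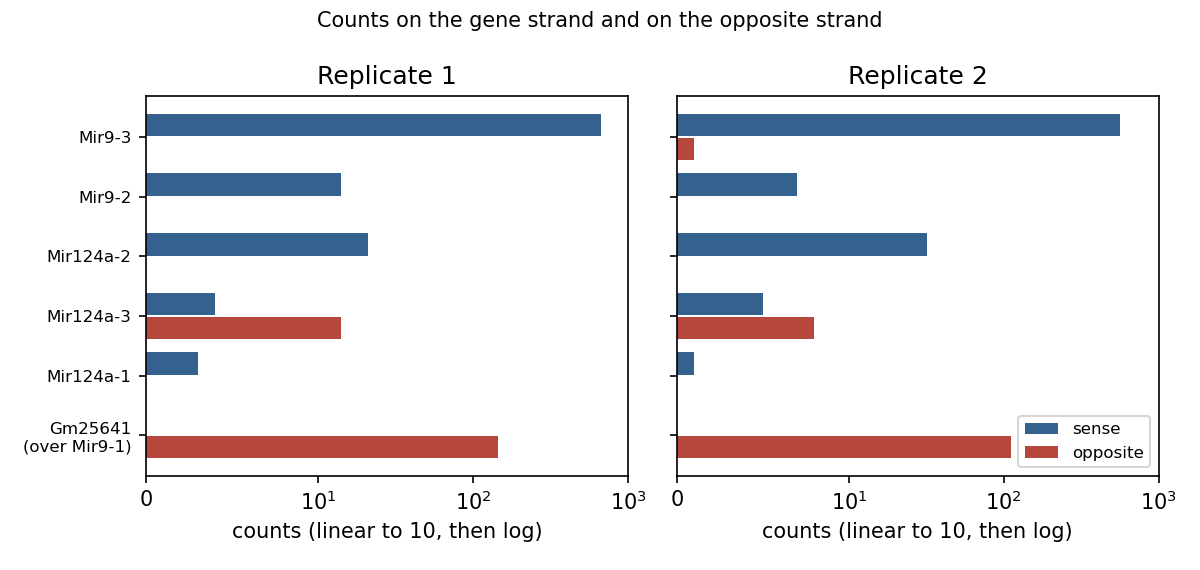
Counts on the gene strand (blue) and on the opposite strand (red) of each copy and of the row Gm25641, which lies over Mir9-1 on the other strand, in replicate 1 (left) and replicate 2 (right), on an axis that is linear to 10 counts and then logarithmic. Mir124a-3 has 14 and 8 opposite against 4 and 5 sense counts, and Gm25641 has 144 and 111 opposite and 0 sense counts.

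Summed over copies with a row, the Mir9 family reached 534 CPM in the first library and 440 CPM in the second, and the Mir124a family 21.9 and 29.3 CPM. The Mir9 copies had 24.4-fold as many counts as the Mir124a copies in replicate 1 and 15.0-fold in replicate 2, a log2 ratio of 4.24 ± 0.49 (SD, n = 2). With the mean per copy in place of the sum, the log2 ratio was 4.78. Without the leading copies, Mir9-2 had 14 and 7 counts in replicates 1 and 2, or 158 and 118 together with the Mir9-1 place, against 7 and 6 for Mir124a-1 and Mir124a-3 together. The row of reads that map to several places held 1165381 reads in replicate 1 and 1001079 in replicate 2, 1637 and 1644 times the sense counts of the 5 members together. The files do not divide that row between genes, so the amount of mature miR-9 and miR-124 was not measured here, and the level of every member can be too low by an unknown amount.

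Mir9-3 ranked 143 of 1973 miRNA genes by mean CPM, Mir124a-2 307, Mir9-2 345, Mir124a-3 406 and Mir124a-1 471. A level of 2 CPM or more in both libraries was reached by 4 of the 5 members, all but Mir124a-1, and by 424 of all 1973 genes (21.5%). Each member's range over the libraries overlapped that of its neighbours in the order, which for Mir9-3 were Mir669l at 484 ± 10.4 CPM and Mir195a at 477 ± 5.94 CPM (SD, n = 2). Mir124a-2 had Mir147 above it at 20.5 ± 1.46 CPM and Mir1947 below it at 19.8 ± 3.66 CPM, so the exact rank of these copies cannot be told. By the distance of log2(CPM + 1) over the 2 libraries, the genes nearest to Mir9-3 were Mir181a-2 (distance 0.04) and Mir770 (0.12), those nearest to Mir124a-2 were Mir1947 (0.15) and Mir1249 (0.27), and those nearest to Mir9-2 were Mir490 (0.10) and Gm24245 (0.19).

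**Figure D4:**
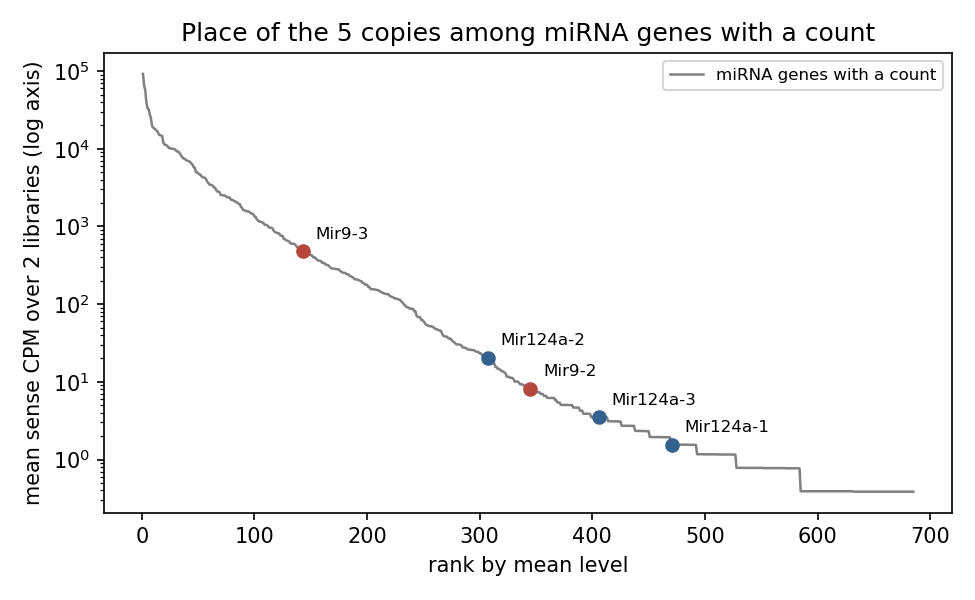
Mean level over the 2 libraries in sense CPM (log axis) of every miRNA gene with a count, by rank, with the Mir9 copies in red and the Mir124a copies in blue. Mir9-3 stands at rank 143 and the other 4 copies between ranks 307 and 471.

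Among the families with several gene copies, the position of Mir9 depended on which copy was taken as the next one. Of 23 families with 2 copies or more and at least 10 counts, the log2 ratio of the leading over the next copy, on counts summed over both libraries, ran from 0.04 for Mir138 to 6.18 for Mir181b with a median of 2.10. With Mir9-2 as the next copy, Mir9 had 5.84, beside 6.18 for Mir181b and 5.78 for Mir194, the 3 largest ratios. Without added counts Mir194 stood at 61.8-fold and Mir9 at 58.8-fold, so their order is not fixed. Mir194-1, the next copy of Mir194, had 2 sense counts in each library, under the 3 counts that a count of 0 allows. With the Mir9-1 place as the next copy, the log2 ratio of Mir9 was 2.27, near the median of the families. Mir124a had 2.49. The leading copy led in both libraries in 21 of the 23 families. Of the 21 families whose leading and next copies had sequences, the leading copy had more arm windows that fit 1 place in 7, Mir9 among them, fewer in 1 and as many in 13. Mir181b and Mir194 had ratios beside that of Mir9, for Mir194 on few counts of its next copy. In both, the leading and next copies had equal shares of arm windows that fit 1 place, 75.0% in Mir181b and 85.0% in Mir194. In Mir9 the share was 36.7% for the leading copy and 0% for both Mir9-2 and Mir9-1. Whether these shares bear on how uneven the counts were was not tested.

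**Figure D5:**
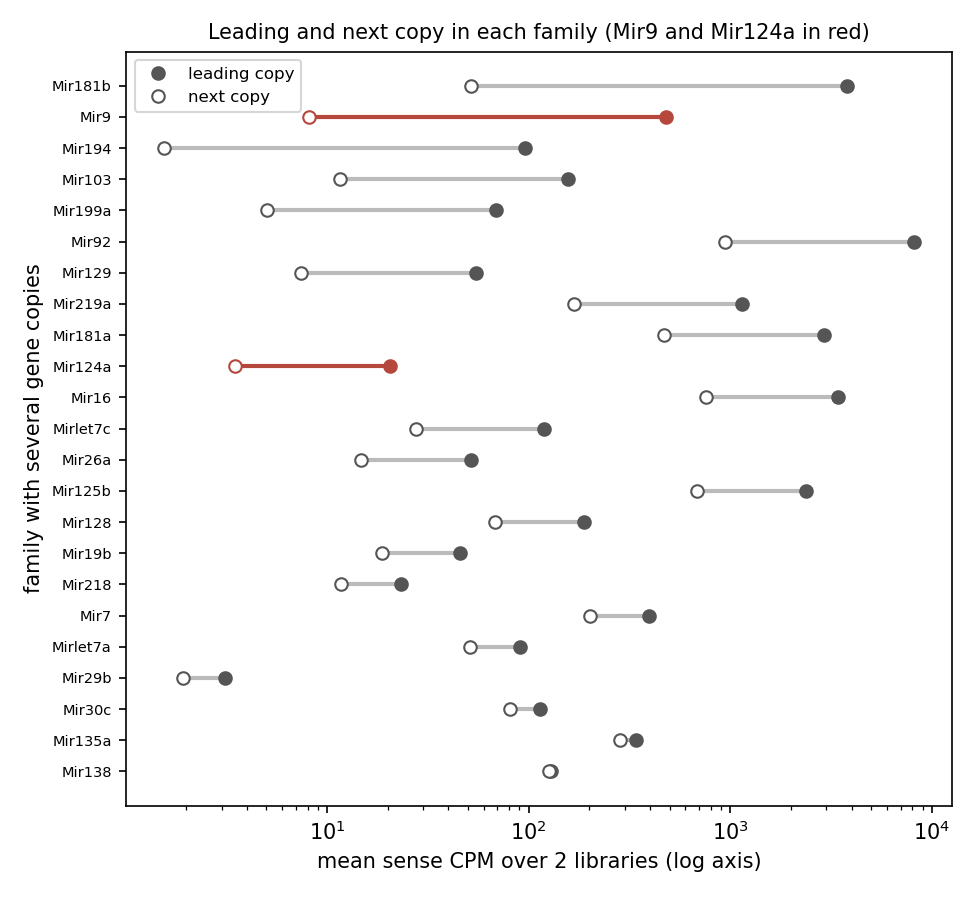
Mean level in sense CPM (log axis) of the leading copy (filled) and the next copy (open) of the 23 families with several copies and at least 10 counts, sorted by the ratio of their counts with 0.5 counts added, with Mir9 and Mir124a in red. Mir9-3 and Mir9-2 stand at 479 and 8.16 CPM, among the 3 widest gaps. The Mir9-1 place, at 99.0 CPM, is not drawn. With it as the next copy the log2 ratio of Mir9 is 2.27, near the median of the families.

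Neural miRNAs with a single gene copy had a higher median level than any of the 5 members had. All 11 such genes on the list were at 2 CPM or more in each library, with mean levels from 10.9 to 17079 CPM and a median of 1939 CPM. Mir92b, known from neural progenitors, had 17079 ± 1908 CPM, Mir149 14979 ± 1706 CPM, Mir139 3185 ± 52.4 CPM and Mir137, known from neurons, 2536 ± 316 CPM (SD, n = 2). Of the other 51 genes with several copies, 42 reached 2 CPM in both libraries, 4 had 0 counts, and the median of the mean level was 80.7 CPM, with Mir92-1 highest at 8202 ± 1030 CPM (SD, n = 2), followed by Mir181b-2, Mir16-1 and Mir181a-1. The median over all 1973 genes was 0 CPM. Among the members, Mir9-3 alone lay above the median of the other copies. Reads that fit several copies are in no gene count, whereas a single-copy gene has no other copy to share its reads with. These levels therefore do not compare amounts of mature miRNA.

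Between the libraries no member was called different, which took an adjusted p below 0.05 together with a change of at least 2-fold. Of 398 genes with 10 sense counts or more in total, 11 (2.76%) were called by the exact binomial test with Benjamini-Hochberg adjustment over all 398, and 3 members were among the genes tested. Mir9-3 had a log2 ratio of replicate 1 over replicate 2 of 0.27 (95% exact interval 0.10 to 0.43) and an exact binomial adjusted p of 0.00589, below 2-fold. This p was 0.0565 with TMM factors and 0.0560 with DESeq2 size factors (exact binomial test). With all mapped reads as the total it was 0.333 (exact binomial test, log2 ratio 0.12). It thus passed 0.05 under no other scaling tried. Counting both strands, a change of column, gave an adjusted p of 0.00757 (exact binomial test) at a log2 ratio of 0.26. Mir9-2 had 0.97 (-0.39 to 2.57) with an exact binomial adjusted p of 0.296, and Mir124a-2 had -0.58 (-1.46 to 0.25) with an exact binomial adjusted p of 0.351. Mir124a-1 and Mir124a-3, with 4 and 9 sense counts in total, were below the minimum and were not tested. Counting error alone enters this test, the median over the tested genes was 0.07, and of the other lists 0 of 11 tested single-copy neural genes and 0 of 41 tested genes with several copies were called, against 2 of 4 tested Hox cluster genes and 1 of 4 tested blood genes, all 3 higher in replicate 1.

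As values that moved between the libraries, blood miRNAs summed over 4 genes to 970 CPM in replicate 1, against 690 CPM in replicate 2, the genes being Mir451a, Mir223, Mir144 and Mir486. Mir451a alone had 493 and 244 CPM, while Mir144 had 88.2 and 91.7 CPM and Mir486 24.98 and 35.4 CPM, and the median log2 ratio of the list was 0.07. miRNAs of the Hox clusters, known from the hindbrain and trunk, summed to 210 and 84.0 CPM over 6 genes, with Mir196a-1 at 0 counts. Most of this sum came from Mir10a, with 120 and 41.6 CPM, and Mir10b, with 66.3 and 25.4 CPM. Mir615 had 11.7 and 8.48 CPM, Mir196b 8.59 and 5.39 CPM, and the remaining gene 3.12 and 3.08 CPM. The part of these differences in the values of the Mir9 and Mir124a copies was not tested. All intervals and limits given here take in counting error alone. They can be too narrow even for that, because PCR can copy 1 molecule into many reads.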

How the data were processed

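MicroRNA-seq of E11.5 forebrain was analysed in 2 libraries, biological replicates 1 and 2 of 1 group. The authors deposited raw counts per gene, not normalized, for both strands, the gene strand and the opposite strand, on mm10 and GENCODE M4 per the text files deposited with them. Which aligner and counter made them is not given in the sources used here. Multimapping reads have a separate row, 41.7% of the mapped reads in replicate 1 and 39.1% in replicate 2, and are in no gene count.

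Sense counts were scaled to CPM over all miRNA gene rows. M21, used here for names and positions, held 1894 of the 1973 identifiers. The libraries were compared by a two-sided exact binomial test, gene by gene from a total of 10 counts upward, at an adjusted p of 0.05 and 2-fold, and the same test compared copies within a library. It was tested on simulated data with counting error alone. There it called 11 of 32 tested genes changed 2-fold (34.4%) and 32 of 36 changed 3-fold (88.9%), so many 2-fold changes are missed. Log2 ratios had 0.5 counts added. Hairpins that overlap in the genome were merged into 1 place. Level intervals are exact Poisson, shares Wilson, ratios Clopper-Pearson, all at 95%. Named genes were the 5 members, the 2 nearest genes of members with 10 counts or more, and up to 4 genes of each list by level. Neighbours in rank, Mir138, Mir181b, Mir194, the Mir9-1 place and the opposite-strand results were named after their values were seen. The members and lists were chosen with earlier results of these data known. Separate tissue pools carry 1 donor entry, so p-values measure only the difference between these libraries. Python 3.11.15, pandas 2.3.3, numpy 2.4.6, scipy 1.17.1, Biopython 1.88, R 4.3.3, edgeR 4.0.16 and DESeq2 1.42.0 were used. Alternatives covered scaling, filters, strand column, hairpin length, added counts, detection level and single libraries.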

Additional observations from a re-analysis of the deposited data

Results flagged for a closer look

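The opposite column, outside the sense counts on which levels rest, held signal above the 3 counts that a count of 0 allows at Mir124a-3 and over the place of Mir9-1. Mir124a-3 had 14 opposite counts in replicate 1 and 8 in replicate 2. The strand of Mir9-1 had 144 counts in replicate 1 and 111 in replicate 2, in the opposite column of the row Gm25641.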

How the results depend on the processing

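Of 97 recomputed values, 85 kept their direction and their side of the threshold, or moved by less than the spread between the libraries. The log2 ratio of replicate 1 over replicate 2 of Mir124a-3 reversed, at 0.47 with both strands counted against -0.27 as reported, with 9 sense counts behind it. With all mapped reads as the total, the level was 230 reads per 1000000 for Mir9-3 and 10.01 for Mir124a-2. With both strands counted, the mean log2 ratio was 0.74 for Mir124a-2 over Mir124a-3, no longer past the threshold in both libraries, and 2.79 for Mir124a-3 over Mir124a-1, now past it. With the mean per copy, Mir9 over Mir124a was 4.78. With the spread set to 0.2 (a coefficient of variation), edgeR's exact test called 0 genes between the libraries, with 13 at an unadjusted p under 0.05, against 11 and 141 in the exact binomial test. Left with a single library, Mir9-3 over Mir9-2 was 5.53 to 6.23 and Mir124a-2 over Mir124a-1 was 2.62 to 4.44, lower without replicate 2. Depth limits Mir124a-1 and Mir124a-3 most, with 4 and 9 sense counts in total. No paired analysis was possible because the series has 1 group.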
